A study of Mus musculus with 2 samples.

Results

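Leukocytes are the white blood cells, and the genes described here mark them as a whole or mark their macrophage, neutrophil and lymphoid branches. The list holds 40 genes, chosen by name, and its members were found as the gene probes whose file name is a member's symbol or its former symbol (Emr1 for Adgre1, Sfpi1 for Spi1, Ela2 for Elane). All 40 were present, with 66 probes in 111 spots, among 19748 genes named on the array. The members fall into 7 pan-leukocyte genes, 22 genes of macrophages and monocytes, 4 subunits of the phagocyte oxidase, 3 neutrophil genes and 4 lymphoid genes.

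The samples were epithelium of the airways inside the lung lobes, cut by laser from frozen lung sections of wild-type male CD-1 mouse fetuses at E18.5 and at E14.5, where E stands for the embryonic day. Each age was 1 sample from 1 lung, and neither carried a mutation or a treatment. Both were amplified, labelled and hybridised together on 1 two-colour oligonucleotide array, E18.5 in Cy5 (red) and E14.5 in Cy3 (green), so dye and age cannot be told apart. The study searched for genes that act downstream of FOXJ1, which switches on motile cilia, and the leukocyte genes are measured here in the same material.

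Macrophages settle in the fetal lung before birth and mature there, and they take up debris, surfactant and microbes through scavenger, lectin and Fc receptors. Many of their receptors signal through the small membrane adaptors encoded by Tyrobp and Fcer1g. PU.1, the product of Spi1, is a transcription factor needed for the macrophage lineage, and the receptor for colony stimulating factor 1, encoded by Csf1r, keeps these cells alive. Neutrophils store peptidases and peroxidase in granules, and lymphocytes carry the CD3 or the CD79 chains of their antigen receptors.

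All values are normalized intensities in arbitrary units, and each log2 ratio is E18.5 over E14.5. A spot is well above background when the scanner software set that mark. With 1 sample per age there is no test and no p-value. A gene is called higher or lower from 2-fold on, by its brightest probe. Where that probe was well above background at E18.5 only, the ratio is a lower bound. Of all probes, 78.7% were well above background at E18.5 and 75.2% at E14.5. All 12 airway epithelial markers looked at were well above background at both ages. Among them, named after their values were seen, were E-cadherin (Cdh1), with 49114 at E18.5 and 19429 at E14.5, and the lung lineage factor Nkx2-1, with 22109 at E18.5 and 32845 at E14.5.

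Leukocyte genes were mostly higher at E18.5. Both ages gave a measured value for 34 of the 40 members, E18.5 alone did for 4, and Elane and Ngp (2 members) stayed near background in both samples. The 2-fold line was passed upward at E18.5 by 28 of the 38 with a value (for 1 through a bound) and downward by 0. Of the other 10, 7 lay inside it, and 3 (Spi1, Siglec1 and Il1b) had only a lower bound under it, so on which side they lie is unknown. Over all 17249 genes with a value, 17.3% passed it upward and 10.1% downward. Medians of the log2 ratio were 1.96 over the members with a value and 0.06 over all genes. At least 4-fold higher were 19 members, against 6.93% of all genes (1195). In bulk material, fewer cells of a type and less RNA per cell cannot be told apart.

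**Figure D1:**
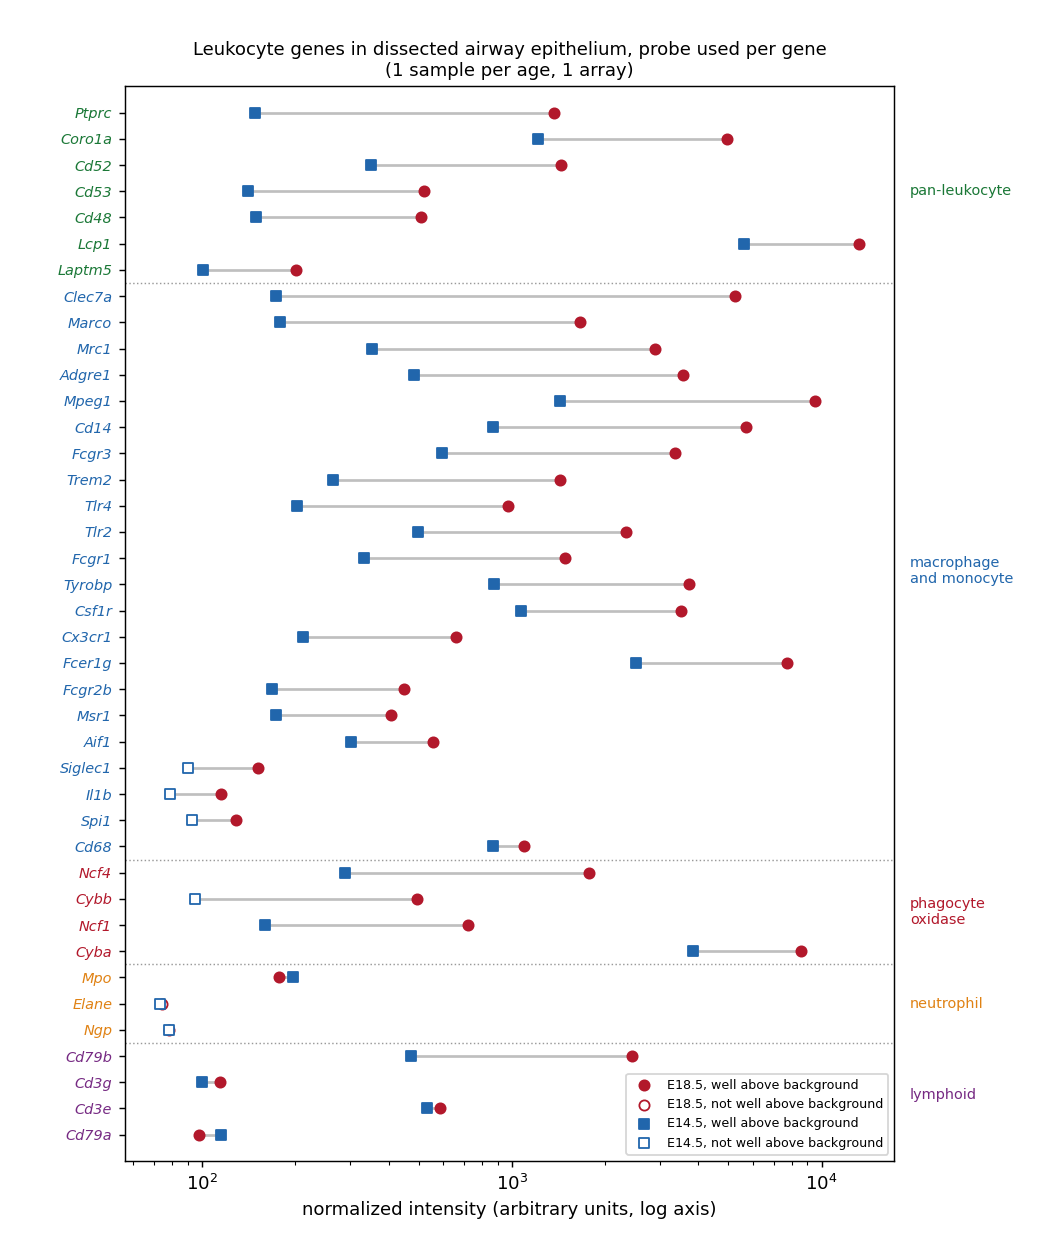
Normalized intensity (log axis) of the probe used for each of the 40 genes at E18.5 (circles) and E14.5 (squares), grouped by class, with open symbols where the spot was not well above background. The pan-leukocyte, macrophage and oxidase genes lie to the right at E18.5, from the 5265 against 173 of Clec7a to the 1095 against 870 of Cd68, while the symbols of Mpo, Elane, Ngp, Cd3e, Cd3g and Cd79a nearly coincide.

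The array probes are designed oligonucleotides of 60 bases, written here 5′ to 3′ in the sense of the mRNA. Of the member probes, 13 have coordinates that span more than 100 bases on mm8, the build named in the file headers, more than the probe's own length, so they join separate stretches of the gene. The 5 below are shown because they join such stretches in genes of the macrophage, oxidase and lymphoid classes that were high or near the floor. They belong to Tyrobp (chr7:30124392-30126119, plus strand), Cyba (chr8:125313083-125313351, minus), Cybb (chrX:8599591-8601518, minus), Cd3g (chr9:44724628-44725212, minus) and Cd79a (chr7:24608094-24608351, plus).
Tyrobp: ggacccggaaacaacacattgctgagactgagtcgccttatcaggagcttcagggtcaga
Cyba: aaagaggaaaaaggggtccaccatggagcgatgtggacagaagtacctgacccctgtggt
Cybb: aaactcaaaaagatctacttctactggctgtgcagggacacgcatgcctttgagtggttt
Cd3g: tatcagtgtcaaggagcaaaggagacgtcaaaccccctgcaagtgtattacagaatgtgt
Cd79a: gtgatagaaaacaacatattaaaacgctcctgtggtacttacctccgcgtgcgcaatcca
With these probes, Tyrobp had an intensity of 3718 at E18.5 and 878 at E14.5, a log2 ratio of 2.08 (4.23-fold). Cyba had 8554 at E18.5 and 3835 at E14.5 (1.16, 2.23-fold). The other 3 were near the floor at both ages: Cybb had 101 at E18.5 and 96 at E14.5, Cd3g 114 at E18.5 and 100 at E14.5, and Cd79a 98 at E18.5 and 115 at E14.5.

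Among the pan-leukocyte genes, 6 of 7 were at least 2-fold higher and 0 lower, with a median log2 ratio of 1.89. Ptprc encodes CD45, the tyrosine phosphatase on the surface of nearly all nucleated blood cells. Its probe was spotted 10 times, with intensities from 1233 to 1470 (median 1379) at E18.5 and from 136 to 156 (median 150) at E14.5. The log2 ratio averaged 3.21 ± 0.06 (SD over 10 spots of 1 array, a technical spread only), 9.23-fold. Over the settings tried it ran from 1.87, with the median over probes, to 3.92, with the scanner software's ratio. The other members of the class had smaller ratios. Coro1a, an actin regulator of leukocytes, had 4964 at E18.5 and 1218 at E14.5 (2.03, 4.08-fold), and 1.55 by its other probe. Cd52, a small anchored glycoprotein of lymphocytes and monocytes, had 1437 at E18.5 and 352 at E14.5 (2.03, 4.08-fold). The tetraspanin gene Cd53 had 522 at E18.5 and 141 at E14.5 (1.89, 3.70-fold). Cd48, a ligand for receptors of the same immunoglobulin family, had 510 at E18.5 and 149 at E14.5 (1.77, 3.42-fold), and its other probe gave a bound of 0.47. Lcp1, the leukocyte form of the actin bundler plastin, had 13243 at E18.5 and 5596 at E14.5 (1.24, 2.37-fold), and 0.35 by its other probe. Laptm5, a lysosomal membrane protein of blood cells, was dim, with 201 at E18.5 and 101 at E14.5, and at 0.99 it missed the 2-fold line by the probe used, while its other probe gave a bound of 1.23.

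Genes of macrophages and monocytes made up most of the list, and 17 of 22 were at least 2-fold higher and 0 lower, with a median of 2.12. Every value of this class lay above 0 by the probe used. For 3 genes it was a lower bound, and a bound below 0 is not kept. The median counts these bounds as values. The 4 largest log2 ratios of the class were those of a lectin receptor, a scavenger receptor, a mannose receptor and a surface antigen of mature macrophages. Clec7a encodes Dectin-1, the lectin receptor for fungal beta-glucan, and had an intensity of 5265 at E18.5 and 173 at E14.5. Its log2 ratio of 4.93 (30.5-fold) stood at rank 97 of 17249 genes, and with the dim E14.5 value it ran from 4.78 to 5.49 over the settings tried. Marco, a scavenger receptor with a collagen-like stalk, had 1660 at E18.5 and 179 at E14.5 (3.21, 9.26-fold). Mrc1, the mannose receptor CD206, had 2887 at E18.5 and 353 at E14.5 (3.03, 8.19-fold). Adgre1, which encodes the antigen F4/80, had 3568 at E18.5 and 483 at E14.5 (2.89, 7.39-fold).

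Further receptors for microbial products were higher as well. Cd14, the co-receptor for bacterial lipopolysaccharide, had 5685 at E18.5 and 871 at E14.5 (2.71, 6.53-fold). Tlr4, the signalling receptor for lipopolysaccharide, was spotted repeatedly, and 9 spots gave 862 to 1047 (median 984) at E18.5 and 187 to 217 (median 205) at E14.5, with a log2 ratio of 2.26 ± 0.05 (SD over 9 spots). Tlr2, a receptor for bacterial lipopeptides, gave 2208 to 2544 (median 2322) at E18.5 and 475 to 527 (median 499) at E14.5, with a log2 ratio of 2.23 ± 0.05 (SD over 8 spots). For Tlr4 and Tlr2 the spots of the 2 ages did not overlap, which reflects the technical spread of 1 array only. Nor did those of Il1b near the floor, with 106 to 126 at E18.5 and 72 to 89 at E14.5. How often spots of the 2 ages did not overlap among all repeated probes was not counted, so this sets no gene apart. Cd14, Tlr2 and Tlr4 are also expressed by epithelial cells, so these 3 are not markers of leukocytes alone. The scavenger receptor gene Msr1 had a smaller ratio, with 407 at E18.5 and 173 at E14.5 (1.24, 2.36-fold) and 1.15 and 0.94 by its other probes.

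The Fc receptors, which bind the constant part of antibodies, and their adaptors were at least 2-fold higher throughout. Fcgr1, the high-affinity receptor, had 1486 at E18.5 and 334 at E14.5 (2.15, 4.44-fold), and 1.41 by its other probe. Fcgr3, an activating receptor, had 3369 at E18.5 and 593 at E14.5 (2.51, 5.68-fold), with a second probe at 2.47. Fcgr2b, the inhibitory receptor, had 448 at E18.5 and 168 at E14.5 by the probe used (1.42, 2.67-fold). A second Fcgr2b probe, spotted 10 times, gave 500 to 598 (median 546) at E18.5 and 120 to 145 (median 135) at E14.5, a log2 ratio of 2.02 ± 0.08 (SD over 10 spots), so the choice of probe moved this gene by more than the spread of its spots. Fcer1g, the gamma chain that activating Fc receptors share, had 7708 at E18.5 and 2512 at E14.5 (1.62, 3.07-fold), and its other probe lay at 1.89. Tyrobp, the adaptor of Trem2 and related receptors, was described above with its probe. Trem2, a lipid-sensing receptor, had 1430 at E18.5 and 264 at E14.5 (2.44, 5.41-fold), and 1.00 by its other probe.

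The remaining macrophage genes spread widely. Mpeg1, a pore-forming protein of the phagosome, had 9514 at E18.5 and 1431 at E14.5 (2.73, 6.65-fold), while its other probe gave a bound of 0.60 and the median over probes was 1.67. Csf1r had 3509 at E18.5 and 1068 at E14.5 (1.72, 3.29-fold), with other probes at 1.05 and −0.02. The chemokine receptor gene Cx3cr1 had 661 at E18.5 and 211 at E14.5 (1.65, 3.13-fold), with its other probe at 0.05. Aif1, a calcium-binding protein also called Iba1, had 558 at E18.5 and 303 at E14.5 (0.88, 1.84-fold), and its other probe lay at 0.32. Cd68, a lysosomal glycoprotein widely used as a macrophage stain, was within 2-fold, with 1095 at E18.5 and 870 at E14.5 (0.33, 1.26-fold), and it lay between 0.11 and 0.36 in every setting tried. A further 3 genes were dim, and their probes cleared the background mark in the E18.5 sample alone, so each has only a lower bound and may lie on either side of 2-fold. Siglec1, which encodes sialoadhesin, had 152 at E18.5 and 90 at E14.5 (at least 1.69-fold higher), and its other probe lay at −0.13. Spi1 had 129 at E18.5 and 93 at E14.5 (at least 1.39-fold higher). The cytokine gene Il1b gave 106 to 126 (median 114) at E18.5 and 72 to 89 (median 80) at E14.5 over 10 spots (at least 1.39-fold higher).

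**Figure D2:**
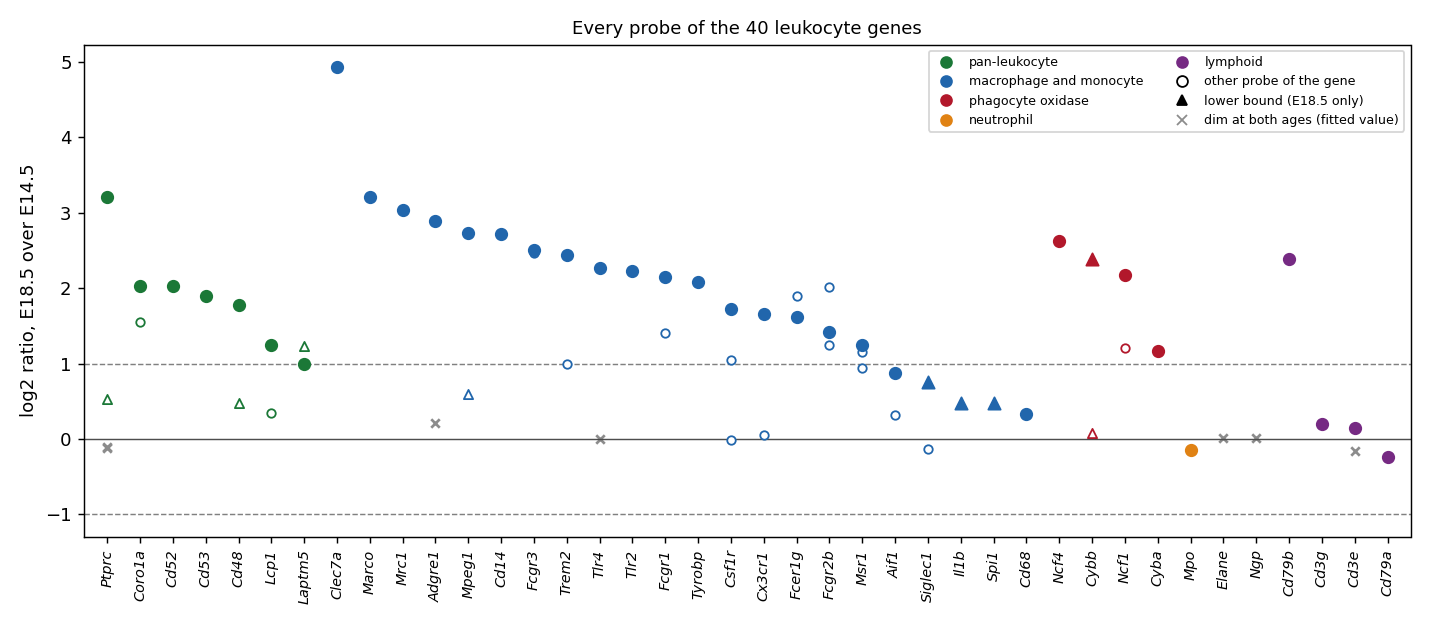
Log2 ratio of E18.5 over E14.5 for every probe of the 40 genes, with filled symbols for the probe used, open symbols for other probes, triangles for lower bounds and crosses for probes dim at both ages. Dashed lines mark 2-fold. Clec7a stands highest at 4.93. For Csf1r and Cx3cr1 the probe used was at 1.65 or more, while another probe, measured at both ages, lies at −0.02 and 0.05. Other probes of Ptprc, Cd48 and Cybb gave only lower bounds, of 0.53, 0.47 and 0.08, so their ratios may be larger.

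PU.1 binds a purine-rich site with the core GAGGAA, and RefSeq promoter windows (GRCm38.p6) were searched for these letters on both strands over the 250 bases before the gene start. Windows were found for 29 members, and 15 of them (51.7%) held the letters, against 25.9% of 27025 genes with a window. Among members at least 2-fold higher it was 8 of 19 (42.1%), and among the other members 7 of 10 (70%). Of the 3 oxidase genes with a window, 0 held them. Among macrophage receptor genes at least 4-fold higher with a window, Clec7a, Marco, Mrc1, Fcgr3, Trem2 and Fcgr1 hold the letters. Tlr2 does not. Windows of 3 of the genes that hold the letters are printed as examples, with each match in capitals (TTCCTC where it lies on the other strand). They are Clec7a (chr6:129472786-129473035, minus strand), Mrc1 (chr2:14229164-14229413, plus) and Fcgr3 (chr1:171059395-171059644, minus), each 5′ to 3′ toward the start.
Clec7a: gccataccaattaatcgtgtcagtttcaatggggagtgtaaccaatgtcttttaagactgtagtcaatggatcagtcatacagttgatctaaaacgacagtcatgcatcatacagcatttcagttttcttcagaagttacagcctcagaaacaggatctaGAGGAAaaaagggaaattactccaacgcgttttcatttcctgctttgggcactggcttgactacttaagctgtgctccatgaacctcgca
Mrc1: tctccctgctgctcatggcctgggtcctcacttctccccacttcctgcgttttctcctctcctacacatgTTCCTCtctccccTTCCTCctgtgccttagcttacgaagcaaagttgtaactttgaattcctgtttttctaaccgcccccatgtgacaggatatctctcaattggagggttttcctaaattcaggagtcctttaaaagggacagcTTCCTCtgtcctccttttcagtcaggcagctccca
Fcgr3: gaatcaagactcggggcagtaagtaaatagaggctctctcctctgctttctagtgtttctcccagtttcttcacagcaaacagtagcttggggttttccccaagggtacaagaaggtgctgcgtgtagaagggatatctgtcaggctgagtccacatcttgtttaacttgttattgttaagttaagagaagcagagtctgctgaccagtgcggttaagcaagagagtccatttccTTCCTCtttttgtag
Clec7a and Fcgr3 held 1 match each and Mrc1 held 3, the one nearest the start 29 bases from it. A match is a run of letters and no evidence of binding.

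The phagocyte NADPH oxidase makes superoxide and consists of a membrane pair and cytosolic subunits. All 4 members were at least 2-fold higher, with a median of 2.27. Cybb, the catalytic membrane subunit, had 495 at E18.5 and 95 at E14.5, where it was not well above background (at least 5.21-fold higher), and its other probe, printed above, was near the floor at both ages. Cyba, its membrane partner, is expressed in many cell types and had the smallest ratio of the 4 (1.16), and lay just under 2-fold with the scanner software's ratio (0.99). The cytosolic subunit Ncf1 had 720 at E18.5 and 160 at E14.5 (2.17, 4.49-fold), and 1.21 by its other probe. Ncf4, another cytosolic subunit, had 1775 at E18.5 and 289 at E14.5 (2.62, 6.15-fold). Of 9 further oxidase genes, 7 had a value, 3 were at least 2-fold higher and 0 lower, with a median of 0.19. Noxa1 and Noxo1, cytosolic subunits of the oxidase Nox1 in epithelia, were at 3.43 and 1.98. Nox1 itself, named after its value was seen, was not well above background at either age. Rac1, a widely expressed small GTPase, was at −0.66 (0.08 by its other probe).

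Of the neutrophil members, only Mpo had a value, and it was dim and within 2-fold. Mpo, the granule peroxidase, had 177 at E18.5 and 196 at E14.5 (−0.15). Elane, neutrophil elastase, had 74 at E18.5 and 73 at E14.5, and Ngp, a protein of secondary granules, had 78 in both, and neither was well above background, so no ratio is given. A further list of 20 neutrophil and granule genes gave other counts: 14 had a value, 8 were at least 2-fold higher (2 as bounds), 0 were lower, and the median was 1.25. Its 4 largest ratios were Lcn2, the iron-scavenging lipocalin (64.0-fold, 16327 at E18.5 and 255 at E14.5), Chil1, a chitinase-like protein (5.52, 26373 and 574), Pglyrp1, which binds bacterial peptidoglycan (4.62, 33859 and 1374), and the calprotectin subunit S100a8 (4.04, 1905 and 116). Lcn2 and Chil1 are also made by epithelia, and which cells gave the signals of this list was not tested. Other granule genes, named after their values were seen, were higher or nearly unchanged. S100a9 was at 3.21, Ltf had a bound of 2.07 and Mmp8 a bound of 1.25. The azurophil granule peptidases Prtn3 and Ctsg were at 0.13 and 0.04 and the gelatinase Mmp9 at 0.01.

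Lymphoid members were divided. The T cell receptor chains Cd3e and Cd3g had 585 and 114 at E18.5 and 532 and 100 at E14.5, with log2 ratios of 0.14 and 0.20. The other Cd3e probe had 66 at E18.5 and 74 at E14.5 and was not well above background at either age. Cd79a and Cd79b encode the pair of signalling chains of the B cell receptor. Cd79b had 2442 at E18.5 and 471 at E14.5 (2.38, 5.19-fold), while Cd79a had 98 at E18.5 and 115 at E14.5 (−0.24). Over all settings tried Cd79b stayed between 2.33 and 2.50 and Cd79a between −0.76 and −0.21. Of 33 further lymphoid genes, 26 had a value, 4 were at least 2-fold higher (for 1 this is a bound) and 1 was lower, and the median, with 4 bounds among the values, was 0.01. Vpreb3, known from pre-B cells, was at 4.06 (10792 at E18.5 and 648 at E14.5), with a second probe at 4.15. The kinase Zap70 of T cell receptor signalling was at 2.99 (1790 at E18.5 and 226 at E14.5), and Cd8b1 at −1.04 (3513 at E18.5 and 7234 at E14.5), with its other probe at 0.25.

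Further myeloid genes were also mostly higher at E18.5. Their lists were chosen with results of these data known and are no independent support. Of 42 further genes of macrophages, monocytes and dendritic cells, all had a value, 28 were at least 2-fold higher (2 as bounds), 0 were lower and the median was 1.62. Chil3, a chitinase-like protein of alveolar macrophages, had 17064 at E18.5 and 324 at E14.5 (5.72, 52.6-fold). Ctss, the lysosomal peptidase cathepsin S, had 13491 at E18.5 and 959 at E14.5 (3.81). Pirb, an inhibitory receptor, was at 3.75 by both probes, and Fabp4, a fatty acid carrier also found in endothelium, at 3.72. Of 13 further pan-leukocyte genes, 12 had a value, 7 were at least 2-fold higher and 0 lower, with a median of 1.23. They were led by Rac2, the blood cell form of Rac (3.46, 8002 at E18.5 and 727 at E14.5), the adaptor Hcls1 (2.03), the integrin chain Itgb2 (1.82) and the lymphocyte adaptor Sash3 (1.54).

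Ligands for these cells were counted in the same way. Of 8 growth factors, 6 had a value, 1 was at least 2-fold higher and 0 lower, a share near the 17.3% of all genes. This was Il34, one of the 2 ligands of the Csf1r product, with 2899 at E18.5 and 675 at E14.5 (2.10, 4.30-fold). The other ligand, Csf1, named after its value was seen, was at 0.30. Csf2 was at 0.80, Tgfb1 at 0.51 and Cxcl12 at −0.72. Of 20 myeloid chemokines and their receptors, 18 had a value, 7 were at least 2-fold higher (2 as bounds) and 0 lower. Cxcl15, a chemokine of lung epithelium, was at 5.04 (40073 at E18.5 and 1219 at E14.5), Ccl6 at 4.90 (5257 and 176), the formyl peptide receptor Fpr1 at 2.94 (832 and 108) and Ccl9 at 2.86 (2252 and 310). In the Toll-like receptor and cytokine pathway, 22 of 25 genes had a value, 10 were at least 2-fold higher and 1 lower, with a median of 0.56. Its largest ratios were those of the lipopolysaccharide-binding protein Lbp (2.51), Il18 (2.17), the interleukin-1 receptor antagonist Il1rn (1.95, other probe 0.14) and Casp1 (1.64). The single lower gene, named after its value was seen, was Tlr1 (−1.41).

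**Figure D3:**
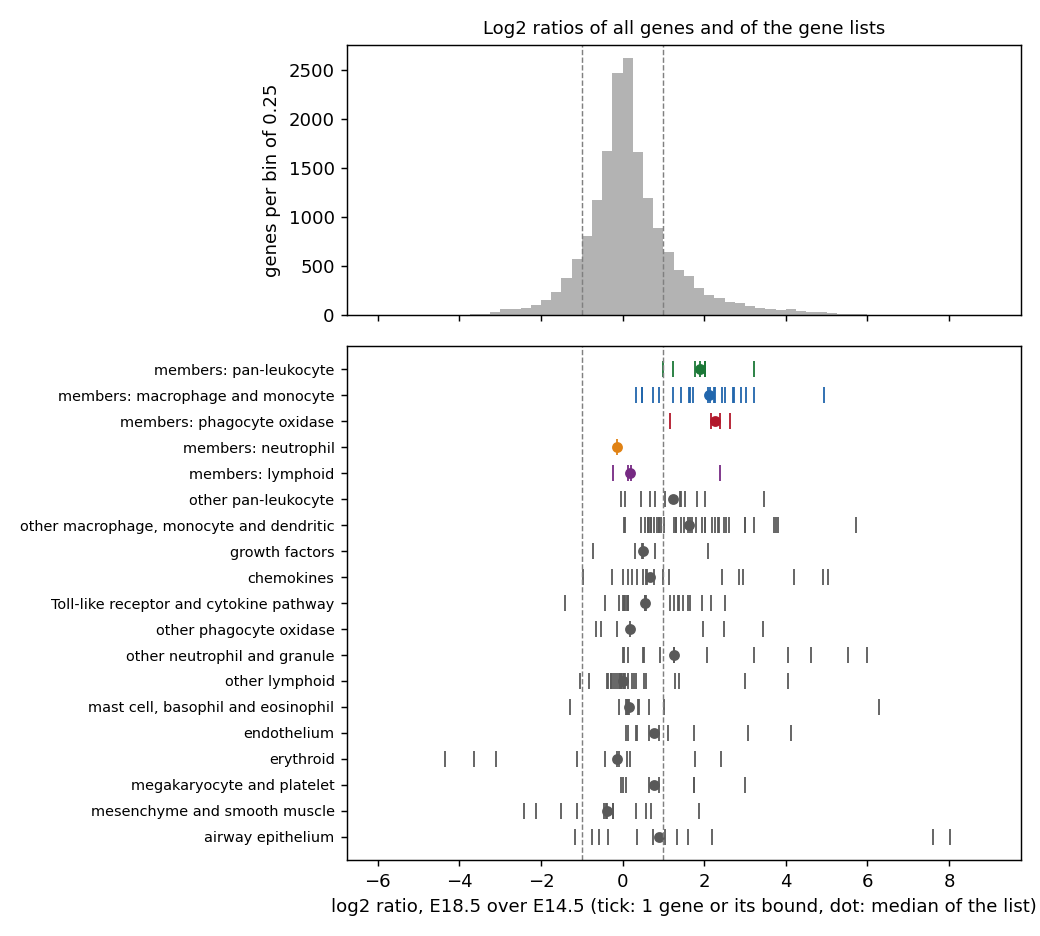
Top, the distribution of log2 ratios (E18.5 over E14.5) over all 17249 genes. Bottom, the same scale for each gene list, with 1 tick per gene or bound and a dot at the median. The pan-leukocyte, macrophage and oxidase members have medians of 1.89, 2.12 and 2.27, the lymphoid members 0.17, and the median of all genes is 0.06.

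Markers of other cell types outside the epithelium were measured beside these genes. The endothelial list of 10 had 4 genes at least 2-fold higher and 0 lower, with a median of 0.77, and their summed intensity was 114006 at E18.5 and 21079 at E14.5, of which Kdr had 71669 and 4090. Of 13 mesenchyme and smooth muscle genes, 1 was higher and 4 lower, with a median of −0.38 and sums of 493780 at E18.5 and 540671 at E14.5. Of 12 erythroid genes, 11 had a value, 2 were higher and 4 lower, with a median of −0.13 and sums of 233967 at E18.5 and 84067 at E14.5. Globins made up most of these sums, with 223583 at E18.5 and 42355 at E14.5 for Hba-a1, and 1617 and 32911 for Hbb-y. Of 8 megakaryocyte and platelet genes, 3 were higher and 0 lower, with a median of 0.76 and sums of 10315 at E18.5 and 2034 at E14.5, of which Pf4, which macrophages also express, had 8456 and 1060. All of the endothelial, mesenchymal and megakaryocyte genes were well above background at both ages, and 2 erythroid genes at E18.5 only. The part of these cell types in the leukocyte result was not tested.

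Probes of 1 gene differed in ratio, in their place along it and in brightness. Of the 21 members with several probes, the probe nearest the 3′ end had the largest fitted log2 ratio in 19 (90.5%). Fitted values of probes dim at both ages were counted too. Among members at least 2-fold higher it was 15 of 17 (88.2%), against 69.0% of the 1336 genes at least 2-fold higher with several probes. Over all 8455 genes with several probes it was 47.3%. The probe nearest the 3′ end was also the brightest in 18 of the 21 members (85.7%), against 68.1% of all genes with several probes. Place and brightness therefore cannot be told apart. For Ptprc the ratios were 3.21 at the 3′ probe, a bound of 0.53 at the next, and 2 further probes were not well above background at either age. For Adgre1, the far probe, 72622 bases away in the genome, was dim at both ages. Exceptions were Fcer1g, whose probes overlap, and Tlr4, whose probe nearest the 3′ end had 73 at both ages. RNA was amplified in a single round before labelling, and the part of this step was not tested.

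**Figure D4:**
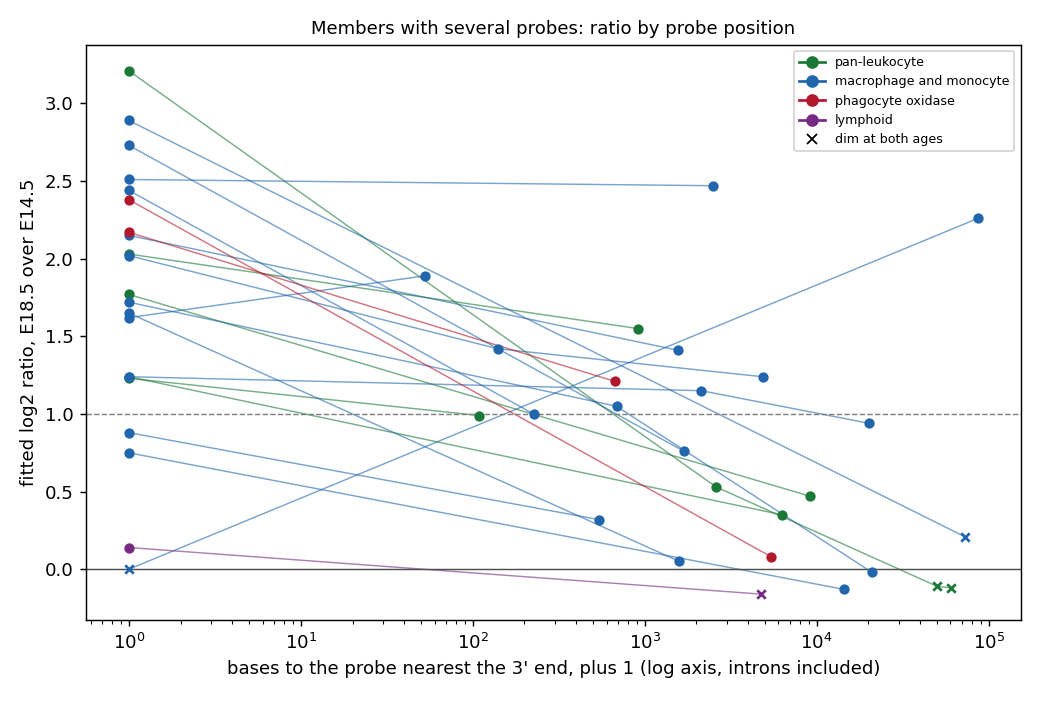
Fitted log2 ratio (E18.5 over E14.5) of each probe against its distance in bases, plus 1, from the probe nearest the 3′ end (log axis, introns included), for the 21 members with several probes, joined by gene. Lines fall to the right for all but Fcer1g and Tlr4, and the crosses mark probes dim at both ages.

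The array gives 2 technical spreads. Over the 245 probes with repeated spots, the median SD of the log2 ratio was 0.05. Between different probes of a gene, measured at both ages, it was 0.33 over 6977 genes. The probes of single members could differ by more than this, as those of Csf1r and Cx3cr1 did. Both are spreads within 1 array and hold nothing of the variation from fetus to fetus or from one dissection to the next.

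**Figure D5:**
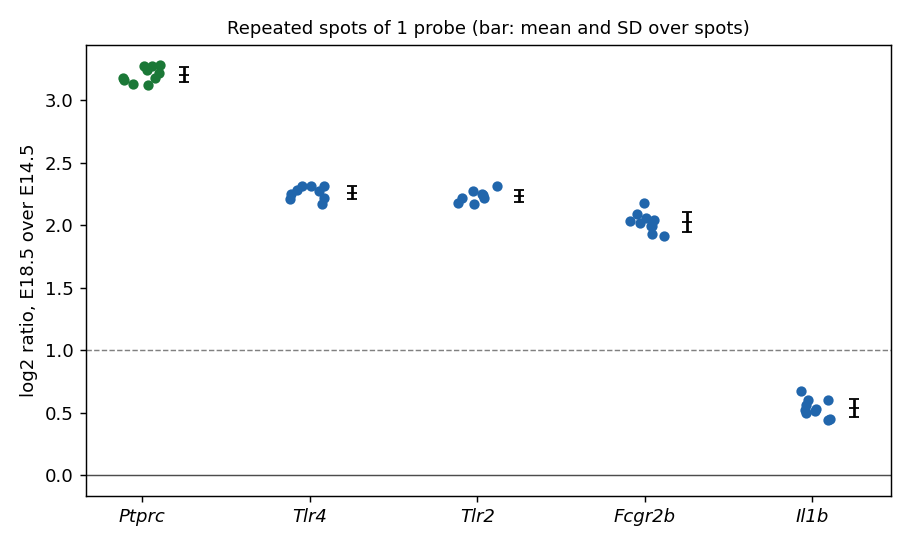
Log2 ratio (E18.5 over E14.5) of each repeated spot for the 5 members whose probe was spotted 8 to 10 times, with the mean and SD over spots. Spots of Ptprc lie between 3.12 and 3.28, those of Tlr4, Tlr2 and Fcgr2b between 1.91 and 2.31, and those of Il1b between 0.44 and 0.67.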

How the data were processed

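Both samples were read on 1 Agilent array of 60-base probes. The deposited scanner files hold mean and background intensity, the log10 ratio of red over green, and spot flags, made with Agilent Feature Extraction 9.5.3.1, per the submitters' processing notes. Per the labels, E18.5 was Cy5 and E14.5 was Cy3, so positive log2 values mean higher at E18.5. The 2 files held identical columns (116 of 116) and were counted as 1 array. The authors' deposited value table holds intensity equal to 0.339 times the processed signal, floored at 15, with column medians of 130.2 for E18.5 and 129.1 for E14.5, and was used as an alternative. The origin of this constant is unknown here.

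Mean intensities were corrected with normexp (offset 50) and normalized by loess with a span of 0.3 and 4 iterations (limma 3.58.1, R 4.3.3), with control and outlier spots at weight 0, after a test on simulated data. Of 45018 spots, 1639 were controls and 160 outliers, and 0 were saturated. Repeated spots were averaged. Genes were named through RefSeq (GRCm38.p6), and each was represented by its brightest probe well above background in at least 1 channel. A bound sets the brighter value against the higher of the dim value and the lowest signal among probes well above background (63 at E18.5, 82 at E14.5). Precision is limited by there being 1 array. All 40 members are named, and from each further list the 4 genes with the largest ratios measured at both ages, with exceptions said, and some of these are not reported here. The members and lists were chosen with earlier results of these data known.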

Additional observations from a re-analysis of the deposited data

How the results depend on the processing

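Over the 9 alternatives, the members called higher numbered 27 to 31 (28 as reported), those called lower 0, and the median log2 ratio lay between 1.68 and 2.18 (1.96 as reported). No called member changed sign, but 2 members not called did: Cd3e was −0.07 by the scanner software's ratio and by the authors' deposited values (0.14 as reported), and Siglec1 was −0.13 with only probes well above background at both ages (0.75 as a bound). With the scanner software's ratio 31 were higher, with Cyba lost and Laptm5, Spi1, Siglec1 and Il1b gained. With the authors' deposited values 29 were higher, with Cyba lost and Laptm5 and Siglec1 gained. With the median over probes 27 were higher, with Lcp1 and Cx3cr1 lost and Laptm5 gained. Ptprc ranged from 1.87 to 3.92, Cybb from 1.23 to 4.17 and Clec7a from 4.78 to 5.49. Over all genes, 2688 were at least 2-fold lower by the scanner software's ratio and 1738 as reported, and the all-gene median was −0.05 by that ratio and 0.06 as reported. The cause was not tested. No paired analysis was possible because each age was 1 sample and the labels carry no replicate number. Probes near the floor, as for Spi1, Il1b, Siglec1, Cd3g and Cd79a, had signals too close to background for their ratios to be read closely, and with 1 sample per age no spread between animals was measured.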

Other observations

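Genes of mast cells, basophils and eosinophils were higher about as often as all genes (17.3%). Of 14 listed, 11 had a value, 2 were higher by at least 2-fold and 1 lower at E18.5, with a median log2 ratio of 0.15. Hdc, which makes histamine, had a normalized intensity of 120035 at E18.5 and 1557 at E14.5 (6.27). The mast cell genes Mcpt4, Cma1, Tpsb2, Fcer1a and Ms4a2, named after their values were seen, were at 0.10, 0.39, 0.15, −0.09 and 0.12. Gata2, a transcription factor of these and other blood cells, had 925 at E18.5 and 461 at E14.5 (1.01), and Cpa3, a mast cell peptidase, had 438 at E18.5 and 281 at E14.5 (0.64). Kit, the stem cell factor receptor, had 1455 at E18.5 and 3559 at E14.5 (−1.29). The granule proteins Prg2 and Epx of eosinophils and Mcpt8 of basophils, named after their values were seen, were not well above background at either age.

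Embryonic globins were lower at E18.5. Hbb-y had 1617 at E18.5 and 32911 at E14.5 (−4.35), Hba-x 327 at E18.5 and 4089 at E14.5 (−3.65), and Hbb-bh1 119 at E18.5 and 1023 at E14.5 (−3.11). The adult globin Hba-a1 had 223583 at E18.5 and 42355 at E14.5 (2.40).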
